A study of Rattus norvegicus with 8 samples.

Results

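The genes described here are interferon-stimulated genes and genes that make and load peptides for MHC class I, taken from a list of 32 genes in the ventral prostate of TRAP rats. A listed gene counted as measured if a probe carried its name or its older alias and its Cy5 signal was called well above background on 4 or more of the 8 arrays. By that rule 26 of the 32 genes were measured, by 36 probes, among 23205 genes tested. No probe carried the name of Irf8, Irf9, Ifih1, Oasl, Ifi27 or Slfn4, and 5 of these 6 were reached under other names and are kept apart from every count of the 26.

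Telmisartan blocks the angiotensin II receptor AT1 and was given in drinking water, at 10 mg/kg each day for 12 weeks from an age of 3 weeks, to 4 heterozygous male TRAP rats (Telmisartan 302, 303, 305 and 306). Their controls were 4 heterozygous male TRAP rats on basal diet and tap water (Control 102, 103, 104 and 106). Both groups were of SD strain and 15 weeks old, and 1 Cy5-labelled prostate per rat was set against Cy3-labelled normal ventral prostate of male F344 rats aged 6 weeks. The labels of the treated rats name the doses of 2 and 10 mg/kg per day together, and the series text gives 10 mg/kg per day for the arrays. As background, the TRAP rat carries the SV40 T antigen under the probasin promoter, so the transgene acts in androgen-dependent prostate epithelium and all 8 prostates carry it. The normal reference differs from the TRAP prostates in strain, age, transgene and dye at once, so levels over it are described and not tested.

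Interferons are secreted proteins that cells release when they sense viral nucleic acid or when lymphocytes are activated. Type I interferon acts through a complex with STAT2 and IRF9 that binds the interferon-stimulated response element (ISRE), and interferon gamma acts through the gamma-activated site (GAS). The genes so induced block viral RNA and protein synthesis, and others exchange the catalytic subunits of the proteasome, move the resulting peptides into the endoplasmic reticulum and load them onto class I molecules. In tumours this programme is carried by epithelial cells and by infiltrating leukocytes, and a bulk sample does not separate them.

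In the arrays as a whole, the share of gene spots well above background in Cy5 averaged 62.8% ± 3.94 in telmisartan rats and 72.5% ± 5.63 in control rats (SD, n = 4 each, exact two-sided permutation p = 0.0571). For Cy3 the shares were 49.5% ± 0.908 in telmisartan rats and 51.2% ± 1.47 in control rats (exact two-sided permutation p = 0.114, n = 4 each). No spot of the 36 probes was saturated, and the number of arrays limits the precision of every value below. The labels name 1 rat per array and say nothing of litters or of repeat extracts. Among the prostate luminal markers the cytokeratin gene Krt18 had log2 ratios of 0.54 ± 0.27 in telmisartan rats and 0.34 ± 0.22 in control rats. Probasin, Pbsn, a secretory protein of the prostate, stood below the reference at -2.78 ± 0.18 in telmisartan rats and -2.43 ± 0.41 in control rats (SD, n = 4 each). Both were well above background on all 8 arrays.

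All 26 genes stood above the normal prostate in each of the 8 TRAP rats, whereas 30.8% of all genes tested did so. The ratios were widely spread between rats of the same group, and the same rats were low for nearly every gene. All 26 means were lower in telmisartan rats than in control rats (25 with the scanner software's own ratios, where Usp18 turned, and 24 with median centring, where Usp18 and Isg20 turned), beside 50.6% of all genes tested. The 95% interval of each of the 26 differences holds 0. With limma, 0 of the 26 genes passed an adjusted p of 0.05, as did 0% of all 23205 genes. The adjusted p of the 26 lay between 0.981 and 0.998. At an unadjusted p under 0.05, 0 of the 26 stood out by the brightest probe of each gene, against 1118 of all genes (4.82%, and 2.08% for lower genes alone). Over the alternative settings that count of members ranged between 0 and 10. It was highest without Control 103, which was the lowest control rat for all 26 genes. The shares of all genes in those settings were not taken, so the 10 cannot be set against a background. The groups were without overlap for 0 of the 26 genes, against 2.73% of all genes in either direction and 1.23% lower. In bulk tissue, fewer cells of a type and less RNA per cell cannot be told apart.

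The size of the ratio over normal prostate was large for many of these genes. At least 2-fold above the reference in all 8 rats were 12 of the 26 genes, against 3.73% of all genes tested. That count turned on Telmisartan 302, since in the other 7 rats it was 20 of 26, against 4.53% of all genes, and without Control 103 as well it was 23, against 5.33%. With median centring in place of loess it was 23 in all 8 rats, against 24.4% of all genes. The 4 telmisartan rats were all above 2-fold for 12 genes (4.12% of all genes) and the 4 control rats for 21 genes (5.19% of all genes). On the log2 scale of the ratio, the median over the 26 genes was 0.97, 1.67, 2.82 and 2.36 in Telmisartan 302, 303, 305 and 306, against 3.24, 1.55, 2.73 and 2.47 in Control 102, 103, 104 and 106. Telmisartan 302 was thus lowest, and Control 103 lay below both Telmisartan 305 and Telmisartan 306.

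**Figure D1:**
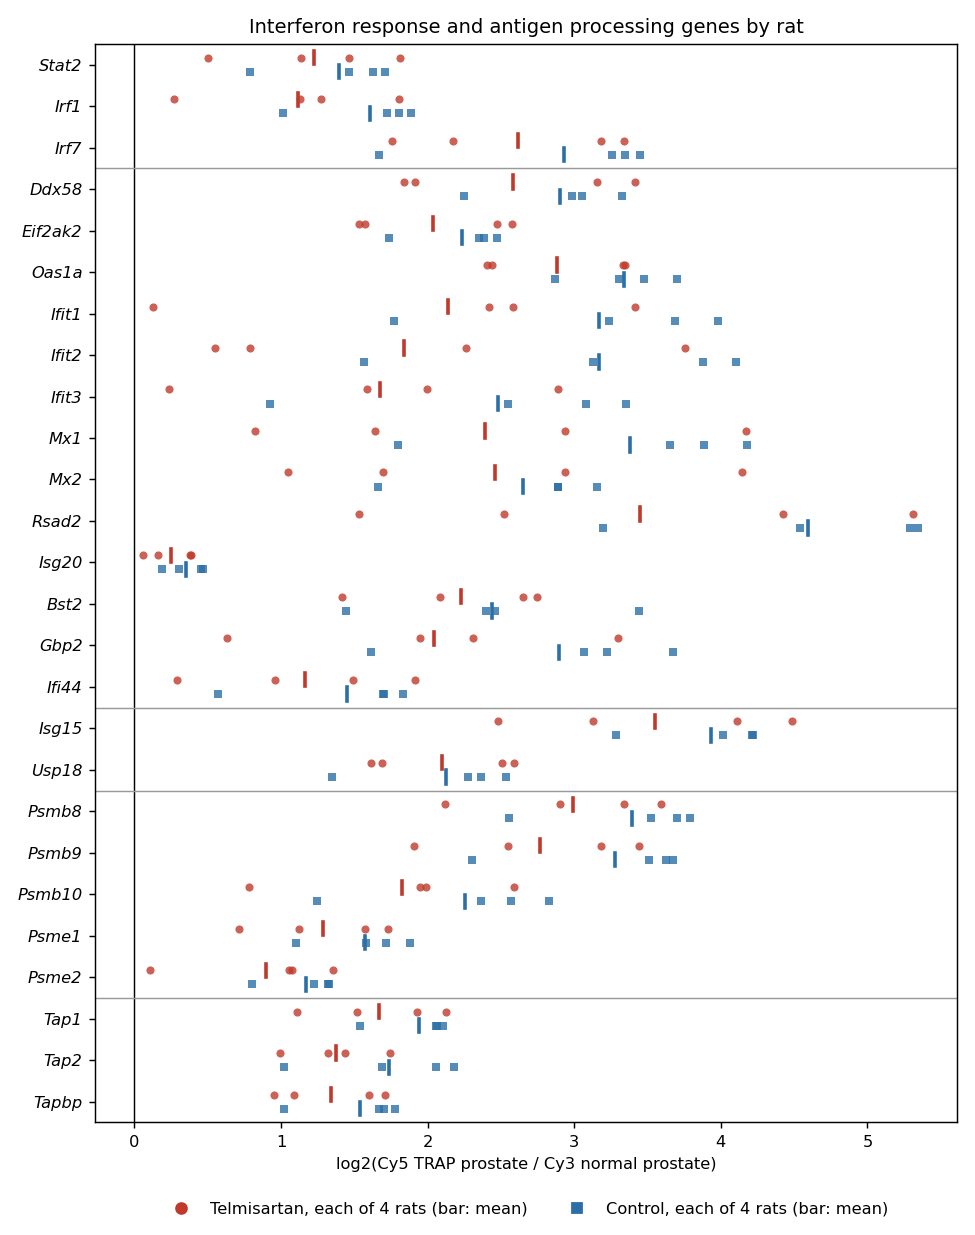
Log2 ratio of TRAP prostate (Cy5) over normal prostate (Cy3) for the 26 measured genes, with telmisartan rats as circles above control rats as squares and a bar at each mean (n = 4 each). Every point lies right of 0, and the 2 groups overlap for all 26 genes.

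The regulators were Stat2, a subunit of the interferon-activated transcription complex, and the interferon regulatory factors Irf1 and Irf7. Irf7, the factor that amplifies type I interferon production, had log2 ratios of 1.76, 2.18, 3.34 and 3.18 in Telmisartan 302, 303, 305 and 306, against 3.35, 1.67, 3.25 and 3.45 in Control 102, 103, 104 and 106. The lowest value was that of Control 103, and the other control rats stood close to Telmisartan 305 and 306. The means were 2.61 ± 0.77 in telmisartan rats and 2.93 ± 0.85 in control rats (SD, n = 4 each), a difference of -0.32 (95% interval -1.33 to 0.70). Irf1, a factor induced by interferon gamma that acts on antigen processing genes, had 0.27, 1.13, 1.80 and 1.28 in Telmisartan 302, 303, 305 and 306, against 1.89, 1.01, 1.80 and 1.72 in Control 102, 103, 104 and 106. Its difference of -0.49 (95% interval -1.17 to 0.19) stood at -0.20 without Telmisartan 302, and the groups overlapped. Stat2 ranged between 0.50 and 1.81 in telmisartan rats and between 0.79 and 1.71 in control rats, with a difference of -0.17.

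Promoters of the 26 genes were read for the elements named above. The genes were listed for interferon response and antigen processing. Their share of ISRE letters therefore describes that choice and not the pattern across the rats. RefSeq promoter sequence of the assembly GRCr8, 250 bases before to 50 after the annotated start, was at hand for 20 of the 26 genes and not for Ddx58, Ifit1, Ifit2, Isg15, Mx2 and Usp18. The ISRE letters GAAANNGAAA, searched on both strands, occurred in 15 of the 20 promoters (75.0%) and in 3.92% of the 33469 promoters of the table. The GAS letters TTCNNNGAA occurred in 4 of the 20, those of Irf1, Oas1a, Bst2 and Psmb8, and in 8.87% of the table. The NF-kB motif occurred in 3 of the 20, those of Irf1, Tap1 and Tapbp, and in 7.51% of the table. Among the 8913 tested genes with a promoter in the table, the shares were 3.22% for ISRE, 7.02% for GAS and 9.78% for NF-kB. The 5 promoters without ISRE letters in this window were those of Stat2, Irf1, Mx1, Psme1 and Psmb9. A match describes letters in a window and not a bound site.

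The 200 bases before the start of 6 genes are shown, as one regulator with ISRE letters alone (Irf7), effectors with a single or a doubled match (Rsad2 and Oas1a), a proteasome subunit and a transporter gene (Psmb10 and Tap1), and the one regulator with GAS letters (Irf1). Capitals mark ISRE, GAS and NF-kB matches, and each sequence runs 5′ to 3′ on the strand of its gene. Irf7 lies at chr1:205800024-205800223 on the minus strand, Rsad2 at chr6:48788121-48788320 on the minus strand, and Oas1a at chr12:41330266-41330465 on the plus strand. Psmb10 lies at chr19:50743293-50743492 on the minus strand, Tap1 at chr20:4668544-4668743 on the minus strand, and Irf1 at chr10:38417735-38417934 on the plus strand.
Irf7 promoter: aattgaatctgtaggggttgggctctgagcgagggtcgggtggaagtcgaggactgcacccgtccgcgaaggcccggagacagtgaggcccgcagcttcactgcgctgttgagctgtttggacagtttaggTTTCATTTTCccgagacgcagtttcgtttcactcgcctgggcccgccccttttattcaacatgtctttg
Rsad2 promoter: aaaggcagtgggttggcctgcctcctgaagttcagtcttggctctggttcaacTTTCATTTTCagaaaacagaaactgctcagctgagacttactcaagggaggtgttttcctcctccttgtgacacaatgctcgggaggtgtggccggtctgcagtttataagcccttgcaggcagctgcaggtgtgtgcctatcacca
Oas1a promoter: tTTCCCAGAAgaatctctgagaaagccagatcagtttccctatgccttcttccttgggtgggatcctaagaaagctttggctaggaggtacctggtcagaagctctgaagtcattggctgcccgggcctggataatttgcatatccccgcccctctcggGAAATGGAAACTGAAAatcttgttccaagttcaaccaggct
Psmb10 promoter: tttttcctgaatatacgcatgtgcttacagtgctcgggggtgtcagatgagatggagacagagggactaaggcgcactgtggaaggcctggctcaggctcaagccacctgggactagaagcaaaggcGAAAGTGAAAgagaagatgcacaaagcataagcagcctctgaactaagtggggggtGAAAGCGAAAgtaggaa
Tap1 promoter: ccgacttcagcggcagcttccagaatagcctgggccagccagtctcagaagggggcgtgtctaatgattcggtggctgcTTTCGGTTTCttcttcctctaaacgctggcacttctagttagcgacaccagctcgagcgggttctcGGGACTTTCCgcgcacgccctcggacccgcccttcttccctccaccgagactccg
Irf1 promoter: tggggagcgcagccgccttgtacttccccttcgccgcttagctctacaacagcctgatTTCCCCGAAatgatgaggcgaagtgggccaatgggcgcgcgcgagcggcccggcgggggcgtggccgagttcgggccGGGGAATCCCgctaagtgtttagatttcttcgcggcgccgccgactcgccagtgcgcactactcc
Positions are counted from the annotated start, with -1 for the base before it. In Irf7 the ISRE letters begin at -69, on the opposite strand. Oas1a carries a run of GAAA repeats whose ISRE matches begin at -41 and -35 and share letters, and its GAS match begins at -199. In Psmb10 the ISRE matches begin at -73 and -17. Tap1 has ISRE letters from -121 and an NF-kB match from -55. Irf1 has GAS letters from -142 and an NF-kB match from -65. Tap1 and Psmb9 are head-to-head neighbours on chromosome 20 with 456 bases between their starts, so the far ends of their windows share 44 bases.

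**Figure D2:**
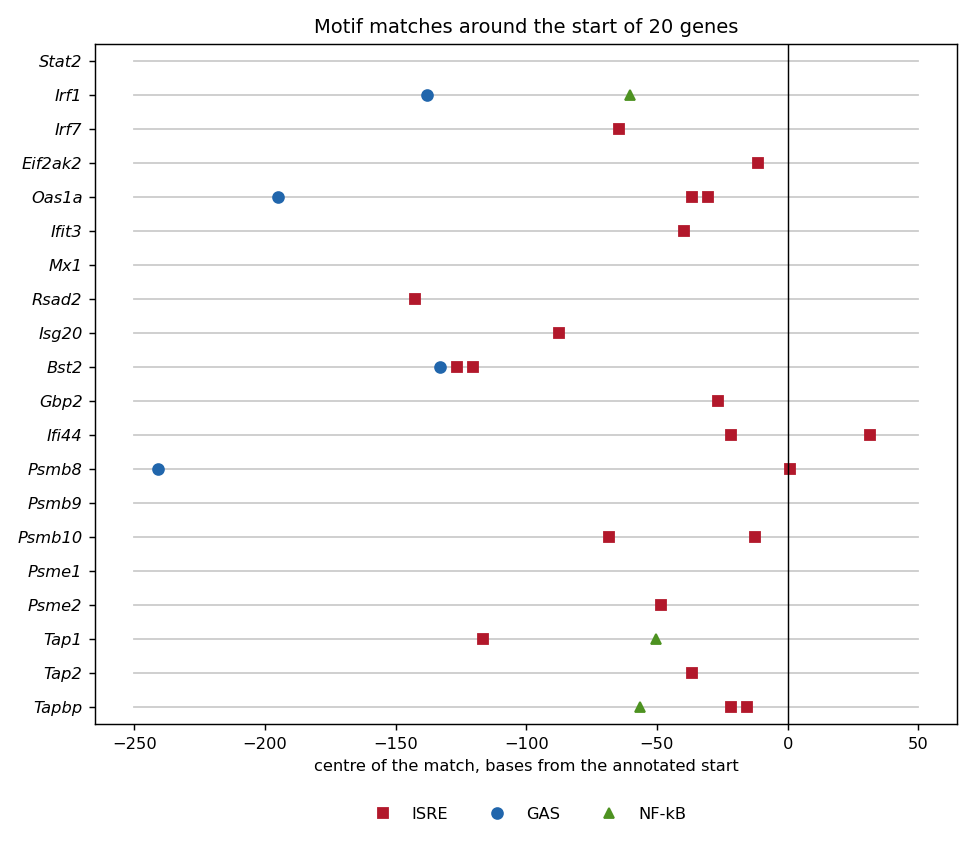
Matches to ISRE, GAS and NF-kB motifs (symbols at the centre of each match) along the window of 250 bases before to 50 bases after the annotated start for 20 genes. ISRE matches lie in 15 of the 20 genes, with the farthest beginning at -147 in Rsad2.

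The 15 genes with ISRE letters had a median difference between telmisartan and control rats of -0.32, and the 5 without had one of -0.49. The ranges were -1.15 to -0.11 with the letters and -0.99 to -0.17 without them. These are descriptions without a test, and 5 genes are few to compare. The split also depends on the window, since the ISRE letters of Tap1 lie between the starts of Tap1 and Psmb9 but outside the window of Psmb9.

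Among the antiviral effectors, Rsad2 had the highest mean log2 ratio of the 26 genes in control rats, while in telmisartan rats that of Isg15 was higher. Rsad2, which encodes viperin, an enzyme that makes a chain-terminating nucleotide, had log2 ratios of 1.53, 2.52, 5.31 and 4.43 in Telmisartan 302, 303, 305 and 306, against 5.29, 3.19, 5.35 and 4.54 in Control 102, 103, 104 and 106. Telmisartan 305 reached the level of the highest control rats, while Telmisartan 302 and 303 lay below every control rat. The means corresponded to 10.9-fold over normal prostate in telmisartan rats and 24.1-fold in control rats, and the difference was -1.15 (95% interval -2.90 to 0.61). Mx1, a dynamin-like GTPase that traps viral ribonucleoprotein, had 0.82, 1.64, 4.17 and 2.94 in telmisartan rats against 4.18, 1.80, 3.89 and 3.65 in control rats, in the same order of rats. Telmisartan 305 was nearly level with Control 102, and Control 103 lay below Telmisartan 305 and 306. The difference was -0.99 (95% interval -2.59 to 0.62). Mx2, the second Mx gene on the array, had 1.05, 1.70, 4.15 and 2.94 in telmisartan rats against 3.15, 1.66, 2.89 and 2.89 in control rats. Here Telmisartan 305 was the highest of all 8 rats, and the difference was -0.19.

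The Ifit genes encode proteins that bind foreign RNA ends and slow translation. With the brightest probe of each gene and all 8 rats, Ifit2 had the largest difference of the 26 genes, -1.33 (95% interval -2.98 to 0.32, limma adjusted p = 0.981). That order did not hold throughout, since the difference of Ifit1 was larger than that of Ifit2 with the mean over a gene's probes (-1.10 against -0.98), without Telmisartan 303 (-1.18 against -0.98) and on slide 2 alone (-0.54 against -0.50). The difference of Rsad2 was also larger than that of Ifit2 on slide 1 alone (-2.22 against -2.16) and with the mean over a gene's probes (-1.06 against -0.98). The log2 ratios of Ifit2 were 0.55, 0.79, 3.76 and 2.26 in Telmisartan 302, 303, 305 and 306, against 4.10, 1.56, 3.88 and 3.13 in Control 102, 103, 104 and 106. Telmisartan 302 and 303 lay below all control rats, and Telmisartan 305 lay above Control 106 and far above Control 103. Ifit1 had 0.13, 2.58, 3.42 and 2.42 in telmisartan rats against 3.98, 1.77, 3.69 and 3.23 in control rats. Only Telmisartan 302 lay below every control rat for Ifit1, and the difference was -1.03 (95% interval -2.54 to 0.48). Ifit3 ranged between 0.24 and 2.89 in telmisartan rats and between 0.93 and 3.35 in control rats, with a difference of -0.80. Its Cy3 spot was well above background on 1 of 4 telmisartan arrays and 3 of 4 control arrays, so its ratio to normal prostate is the least certain of the 26.

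Ifit1 was measured by 3 probes that did not give the same values, and 2 of them are shown because they disagree in single rats. The third, which was the brightest and gave the values above, was well above background in both dyes on all 8 arrays. On the array A_44_P236197 is named Ifit1, while the other 2 probes are named as predicted Ifit1. Each of the 3 was designed on a different transcript record, so they may stand for related genes. The letters carry no capitals because no stretch longer than 5 bases is shared between these probes.
Ifit1 probe A_44_P236197: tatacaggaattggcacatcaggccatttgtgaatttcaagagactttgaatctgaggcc
Ifit1 probe A_44_P450075: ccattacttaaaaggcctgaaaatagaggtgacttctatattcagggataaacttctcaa
The first of these probes had log2 ratios of -0.23, 0.61, 0.085 and 1.94 in Telmisartan 302, 303, 305 and 306, against 2.74, 1.53, 2.53 and 2.20 in Control 102, 103, 104 and 106. Telmisartan 305 was low by this probe and high by the brightest one. The probe was well above background in Cy5 on 2 of 4 telmisartan arrays and 4 of 4 control arrays and in Cy3 on none. Its level over normal prostate is thus a bound of at least 4.74-fold in control rats, and no bound holds for telmisartan rats. Its difference was -1.65 (limma adjusted p = 0.876 over all probes). The second probe had a difference of -0.61 (limma adjusted p = 0.904 over all probes), with Cy5 well above background on 3 of 4 telmisartan arrays and 4 of 4 control arrays. All 3 probes were lower in telmisartan rats, and none passed the test.

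Sensors and kinases of viral RNA were less spread. Ddx58, which encodes the RNA sensor RIG-I, ranged between 1.84 and 3.41 in telmisartan rats and between 2.25 and 3.32 in control rats, with a difference of -0.32 (95% interval -1.16 to 0.52). Eif2ak2, the kinase PKR that stops translation when it meets double-stranded RNA, ranged between 1.53 and 2.58 in telmisartan rats and between 1.74 and 2.47 in control rats, with a difference of -0.20. Oas1a, an enzyme that activates RNase L, had 2.40, 2.44, 3.35 and 3.33 in Telmisartan 302, 303, 305 and 306, against 3.70, 2.87, 3.30 and 3.47 in Control 102, 103, 104 and 106. Telmisartan 302 and 303 lay below all control rats and the other two lay among them. The difference was -0.46 (95% interval -1.04 to 0.13, limma adjusted p = 0.981). For Ddx58 and Eif2ak2 the highest of the 8 rats was Telmisartan 305. A second Eif2ak2 probe ordered the rats otherwise, with 1.40, 1.27, 1.58 and 1.49 in telmisartan rats against 2.06, 1.84, 1.36 and 1.32 in control rats, so that Control 103 was its second highest rat and Control 104 and 106 were among its low ones. Its difference of -0.21 had the same sign as that of the brighter probe. In all, 8 of the 26 genes had several probes, and each of these probes was lower in telmisartan rats. In a fit of all probes, dimmer probes of Ifit1 (A_44_P236197) and Rsad2 (A_44_P370190) had unadjusted limma p of 0.0020 and 0.049. Adjusted over all probes these were 0.876 and 0.901. Neither probe was well above background in Cy3 on any array.

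Gbp2, a guanylate-binding GTPase strongly induced by interferon gamma, had log2 ratios of 0.63, 1.95, 3.30 and 2.31 in Telmisartan 302, 303, 305 and 306, against 3.67, 1.61, 3.22 and 3.07 in Control 102, 103, 104 and 106. The groups overlapped, with Control 103 below 3 of the 4 telmisartan rats and Telmisartan 305 above Control 104 and 106. The difference was -0.85 (95% interval -2.10 to 0.40). Bst2, the membrane tether that holds budding virus, ranged between 1.42 and 2.75 in telmisartan rats and between 1.44 and 3.44 in control rats, with a difference of -0.21. Isg20, an exonuclease that degrades viral RNA, was the exception in level. It had log2 ratios of 0.16, 0.06, 0.38 and 0.39 in telmisartan rats against 0.45, 0.19, 0.47 and 0.31 in control rats, and its residual SD of 0.15 was the only one of the 26 under the median of all genes, 0.18.

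Ifi44, an interferon-induced cytoplasmic protein, ranged between 0.29 and 1.92 in telmisartan rats and between 0.57 and 1.83 in control rats, with a difference of -0.29. It was measured by 3 probes, of which a pair is shown because it repeats the measurement on almost the same letters. Capitals mark the 50 bases that the pair shares.
Ifi44 probe A_44_P407771: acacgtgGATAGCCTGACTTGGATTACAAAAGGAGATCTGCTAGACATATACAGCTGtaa
Ifi44 probe A_44_P1020615: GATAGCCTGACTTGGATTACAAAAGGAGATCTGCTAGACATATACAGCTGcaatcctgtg
Counted from 1 at the 5′ end of the first probe, the pair overlaps over 53 bases with 1 difference, T58C. The log2 ratios by these probes differed by at most 0.082 in any of the 8 rats, which is far less than the spread between rats.

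The ISG15 system joins a ubiquitin-like protein to newly made proteins. Isg15, the modifier itself, had log2 ratios of 2.48, 3.13, 4.48 and 4.11 in Telmisartan 302, 303, 305 and 306, against 4.22, 3.29, 4.21 and 4.01 in Control 102, 103, 104 and 106. Telmisartan 305 was the highest, and Telmisartan 302 and 303 lay below all control rats. The difference was -0.38 (95% interval -1.29 to 0.52). Usp18, the protease that removes ISG15 and damps the type I interferon receptor, had 1.61, 1.69, 2.59 and 2.51 in telmisartan rats against 2.53, 1.34, 2.36 and 2.27 in control rats. Its means were 2.10 ± 0.52 in telmisartan rats and 2.13 ± 0.53 in control rats (SD, n = 4 each). The difference of -0.03 (95% interval -0.70 to 0.65) was the closest to 0 of the 26.

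Interferon gamma exchanges the catalytic proteasome subunits Psmb5, Psmb6 and Psmb7 for Psmb8, Psmb9 and Psmb10, which changes the peptides that are cut. Psmb9 had log2 ratios of 1.90, 2.55, 3.44 and 3.19 in Telmisartan 302, 303, 305 and 306, against 3.67, 2.30, 3.62 and 3.51 in Control 102, 103, 104 and 106. Telmisartan 305 and 306 lay below 3 control rats by little, and Control 103 lay below 3 of the telmisartan rats. The difference was -0.51 (95% interval -1.35 to 0.34). Psmb8 had 2.12, 2.90, 3.59 and 3.34 in telmisartan rats against 3.79, 2.56, 3.70 and 3.52 in control rats, with a difference of -0.40. Psmb10 ranged between 0.78 and 2.59 in telmisartan rats and between 1.25 and 2.83 in control rats, with a difference of -0.43. The activator subunits Psme1 and Psme2, which open the proteasome, were nearer to the reference, with means of 1.29 ± 0.46 and 0.90 ± 0.54 in telmisartan rats and of 1.57 ± 0.33 and 1.17 ± 0.25 in control rats (SD, n = 4 each).

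The replaced subunits did not share this pattern. Psmb5 averaged -0.40 ± 0.20 in telmisartan rats and -0.38 ± 0.13 in control rats, Psmb6 averaged -0.39 ± 0.10 in telmisartan rats and -0.42 ± 0.05 in control rats, and Psmb7 averaged -0.85 ± 0.24 in telmisartan rats and -0.78 ± 0.20 in control rats (SD, n = 4 each). All 3 stood below normal prostate in all 8 rats. Over 25 measured genes of the constitutive proteasome the mean log2 ratio per rat lay between -0.38 and -0.27 in telmisartan rats and between -0.36 and -0.22 in control rats. Of these 25 genes 0 passed the test, with 1 lower at an unadjusted p under 0.05, and 18 were lower in telmisartan rats. That 1 gene was Psme3, the nuclear proteasome activator, at 0.17 ± 0.09 in telmisartan rats and 0.43 ± 0.07 in control rats (difference -0.26, limma adjusted p = 0.981). Its groups did not overlap, as was so for 2.73% of all genes.

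TAP1 and TAP2 form the peptide pump of the endoplasmic reticulum, and tapasin, the product of Tapbp, bridges it to the class I molecule. Tap1 had log2 ratios of 1.11, 1.52, 2.12 and 1.93 in Telmisartan 302, 303, 305 and 306, against 2.10, 1.54, 2.06 and 2.06 in Control 102, 103, 104 and 106. Telmisartan 305 was the highest rat, and 3 of the control rats lay within a narrow range just below it. The difference was -0.27 (95% interval -0.76 to 0.22). Tap2 ranged between 0.99 and 1.74 in telmisartan rats and between 1.02 and 2.18 in control rats, with a difference of -0.36, and was the one gene of the 26 whose difference lay further below 0 on slide 2 (-0.40) than on slide 1 (-0.32). Tapbp ranged between 0.95 and 1.71 in telmisartan rats and between 1.02 and 1.78 in control rats, with a difference of -0.20.

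**Figure D3:**
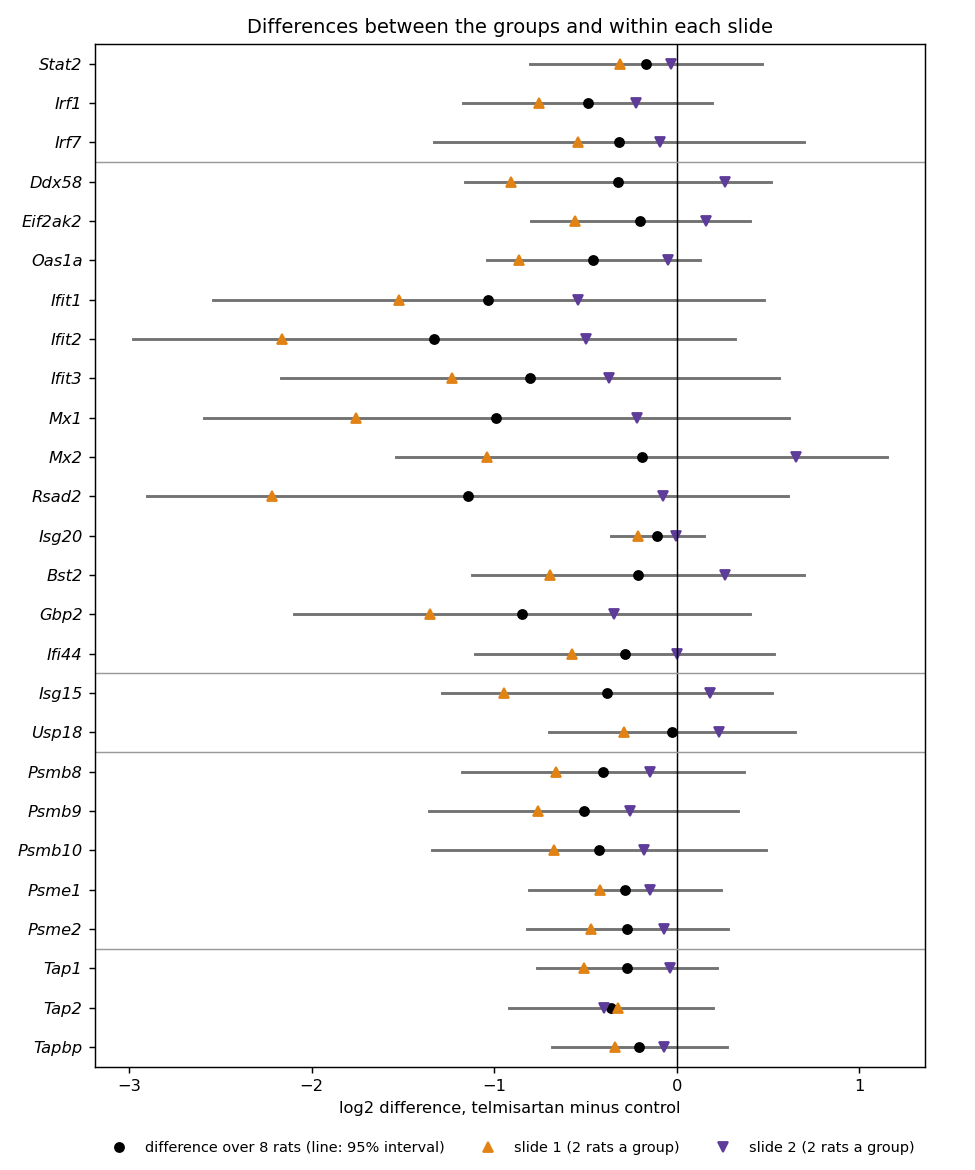
Log2 difference of telmisartan minus control rats for each gene over 8 rats (circles, with the 95% interval as a line) and within each slide (triangles, 2 rats a group). All 26 intervals hold 0, and every slide 1 value lies left of 0.

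Across the 26 genes the median difference was -0.34, beside -0.0019 for all genes tested. The 95% intervals had a median width of 1.66, and 17 of the 26 reached below -1 on the log2 scale, while all 26 also reached above 0. A p that misses the threshold therefore does not show that the groups were alike. Taken by channel, the median difference was -0.36 in Cy5 and -0.00078 in Cy3. The arrays lay on 2 slides with 2 rats of each group on either. On slide 1, which held Telmisartan 302 and 303 with Control 102 and 103, the median difference was -0.68 and 26 of 26 genes were lower. On slide 2, which held Telmisartan 305 and 306 with Control 104 and 106, the median difference was -0.07 and 19 of 26 were lower. Leaving out Telmisartan 302 moved the median to -0.08 with 21 genes lower, leaving out Control 103 moved it to -0.60, and leaving out Telmisartan 305 also moved it to -0.60.

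The rats set the genes together. Telmisartan 302 was the lowest of the 8 rats for 22 of the 26 genes, against 18.4% of all genes tested. Telmisartan 303 was lowest for 2 genes, Eif2ak2 and Isg20, and Control 103 for 2 genes, Irf7 and Usp18. Within the control group Control 103 was the lowest rat for all 26 genes. The highest rat was Control 102 for 11 genes, Telmisartan 305 for 9, Control 106 for 4 and Control 104 for 2. For 23 of the 26 genes the 3 lowest rats were Telmisartan 302, Telmisartan 303 and Control 103, as they were for 6.25% of all genes, and in the other 3 genes (Ifit1, Psme2 and Tap2) Telmisartan 306 took the place of Telmisartan 303. Telmisartan 302, Telmisartan 303 and Control 103 all lay on slide 1, as did Control 102, the highest rat for 11 genes. The residual SD within groups was above the 95th percentile of all genes, 0.47, for 18 of the 26 genes and had a median of 0.66, against 0.18 for all genes.

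**Figure D4:**
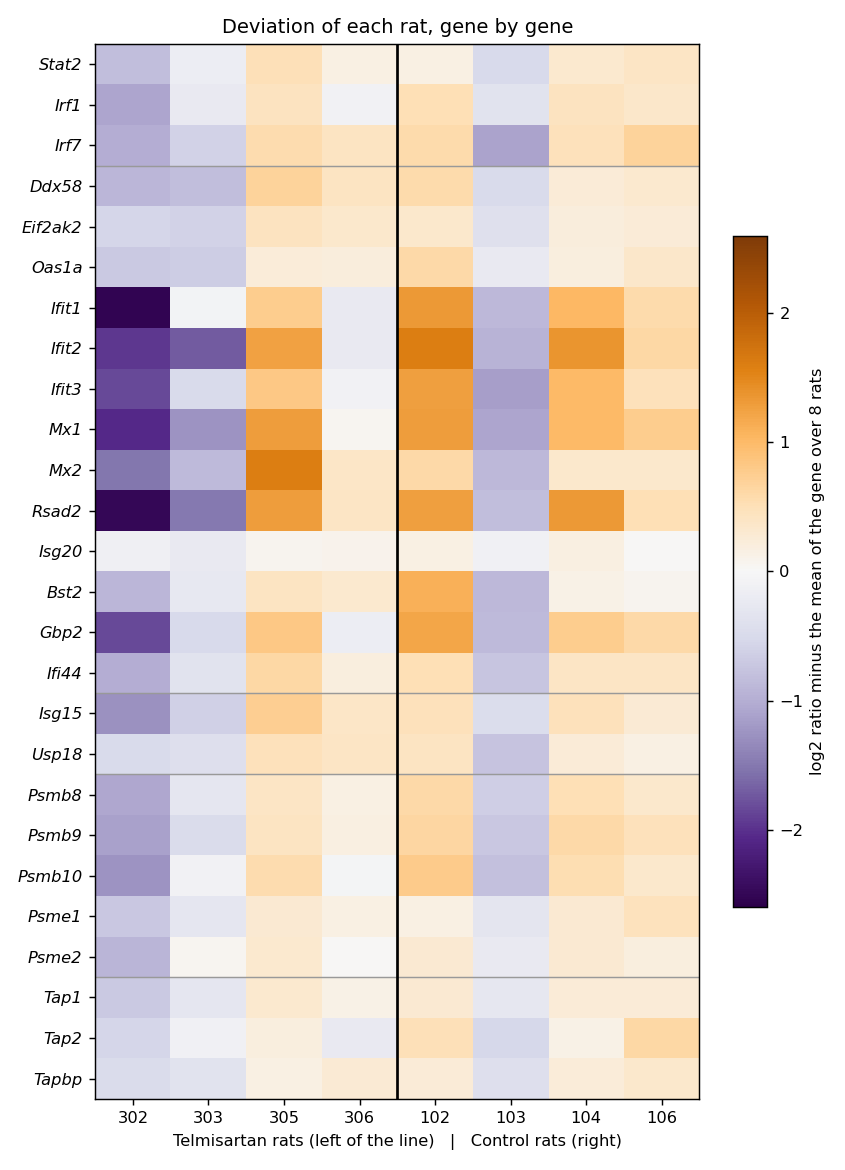
Deviation of each rat's log2 ratio from the mean of that gene over 8 rats, with telmisartan rats left of the line and control rats right of it. The columns of Telmisartan 302, Telmisartan 303 and Control 103 are below the gene's mean for nearly all 26 genes, and Isg20 stays close to its mean in every rat.

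Upstream genes of the pathway were set beside these effectors. Of 28 listed ligands, receptors and signalling genes 20 were measured, 0 passed the test, and 17 were lower in telmisartan rats, with a median difference of -0.13. Some of the 20 passed the Cy5 filter mainly through control arrays, so that count depends in part on the filter. At an unadjusted limma p under 0.05, 0 of the 20 were lower and 1 was higher in telmisartan rats, against 4.82% of all genes in either direction. Ifng, the gene of interferon gamma, was well above background in Cy5 on 1 of 4 telmisartan arrays and 4 of 4 control arrays and in Cy3 on none. It stood at least 1.78-fold above the reference in control rats. No bound holds for telmisartan rats, where Cy5 was not well above background on most arrays. Ifnb1, a type I interferon gene, was likewise measured in Cy5 on 1 of 4 telmisartan arrays and 4 of 4 control arrays. Its bound was at least 1.53-fold in control rats, with none for telmisartan rats. The receptor genes Ifnar1 and Ifngr1 averaged 0.72 ± 0.21 and 1.38 ± 0.24 in telmisartan rats and 0.85 ± 0.10 and 1.41 ± 0.33 in control rats (SD, n = 4 each). The feedback inhibitor Socs1 had a difference of -0.41 (limma adjusted p = 0.981).

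Among 15 measured genes of nucleic acid sensing 0 passed, 9 were lower and the median difference was -0.03. The DNA sensor Aim2 had the largest difference of these at -0.98, with -0.45, 0.24, 1.58 and 0.60 in Telmisartan 302, 303, 305 and 306 and 2.64, -0.13, 1.78 and 1.61 in Control 102, 103, 104 and 106. Control 103 was again the low control rat.

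A list of 40 further interferon-induced genes had 28 measured members, of which 27 were lower in telmisartan rats and 0 passed the test, with a median difference of -0.33. By slide, that median was -0.70 on slide 1 and 0.03 on slide 2. Ifi44l, a relative of Ifi44, averaged 1.90 ± 0.69 in telmisartan rats and 2.74 ± 0.45 in control rats (difference -0.84, limma adjusted p = 0.981). Cmpk2, a mitochondrial nucleotide kinase whose gene neighbours Rsad2, averaged 1.98 ± 1.02 in telmisartan rats and 2.83 ± 0.76 in control rats (SD, n = 4 each). Of 14 measured class I presentation genes 0 passed, 12 were lower, and the median difference was -0.12. The light chain gene B2m had log2 ratios of 1.23, 2.36, 3.31 and 2.86 in Telmisartan 302, 303, 305 and 306, against 2.89, 1.74, 3.34 and 3.25 in Control 102, 103, 104 and 106. Control 103 lay below 3 of the telmisartan rats. The lectin chaperone gene Calr averaged -0.58 ± 0.25 in telmisartan rats and -0.57 ± 0.30 in control rats, and stood below the reference in all 8 rats.

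T cell and NK cell markers were lowest in Telmisartan 302 and Control 103. Telmisartan 303 did not share low values in every list, since its mean for neutrophil markers, 1.63, was level with the highest control rat, and it lay above Telmisartan 306 for macrophage markers (1.43 against 1.28) and dendritic cell markers (0.92 against 0.83). The mean log2 ratio of 11 measured T cell markers ranged between 0.30 and 1.87 in telmisartan rats and between 0.55 and 2.13 in control rats, with Telmisartan 302 and Control 103 at the low ends. All 11 T cell markers and 9 of 9 NK cell markers were lower in telmisartan rats, and 0 passed the test in either list. In both lists some markers passed the Cy5 filter mainly through control arrays, so these counts depend in part on the filter. Cd3d, a chain of the T cell receptor complex, had 0.24, 1.29, 2.40 and 1.84 in Telmisartan 302, 303, 305 and 306, against 3.22, 0.65, 2.90 and 2.47 in Control 102, 103, 104 and 106. The mean of 9 NK cell markers ranged between -0.04 and 2.12 in telmisartan rats and between -0.00012 and 2.33 in control rats. The mean of 13 macrophage markers ranged between 0.45 and 1.80 in telmisartan rats and between 0.93 and 1.88 in control rats, and 12 of the 13 were lower. The macrophage marker Cd68 averaged 1.83 ± 0.62 in telmisartan rats and 2.25 ± 0.33 in control rats, and the cytotoxic T cell marker Cd8a averaged 1.25 ± 0.71 in telmisartan rats and 1.81 ± 0.77 in control rats (SD, n = 4 each).

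Of the other marker lists, 6 of 6 dendritic cell markers, 7 of 7 B and plasma cell markers and 5 of 6 neutrophil markers were lower in telmisartan rats. Markers that passed the Cy5 filter mainly through control arrays also stood in the B and plasma cell, neutrophil and endothelial lists. The dendritic cell means ranged between 0.18 and 1.28 in telmisartan rats and between 0.35 and 1.54 in control rats. For B and plasma cells the ranges were 0.06 to 0.97 in telmisartan rats and 0.42 to 1.05 in control rats, and for neutrophils 0.11 to 1.63 in telmisartan rats and 0.62 to 1.63 in control rats. The median difference of B and plasma cell markers was -0.41 on slide 1 and 0.09 on slide 2. Those of dendritic cell and neutrophil markers were negative on both slides. The luminal epithelium markers, 6 of 13 lower, ranged between -2.18 and -1.86 in telmisartan rats and between -2.25 and -1.82 in control rats. Smooth muscle markers (2 of 7 lower), fibroblast markers (5 of 9 lower) and endothelial markers (5 of 8 lower) had median differences of 0.17, -0.04 and -0.02. None of the leukocyte markers passed the test, and the part of leukocyte content in the interferon gene values was not tested.

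**Figure D5:**
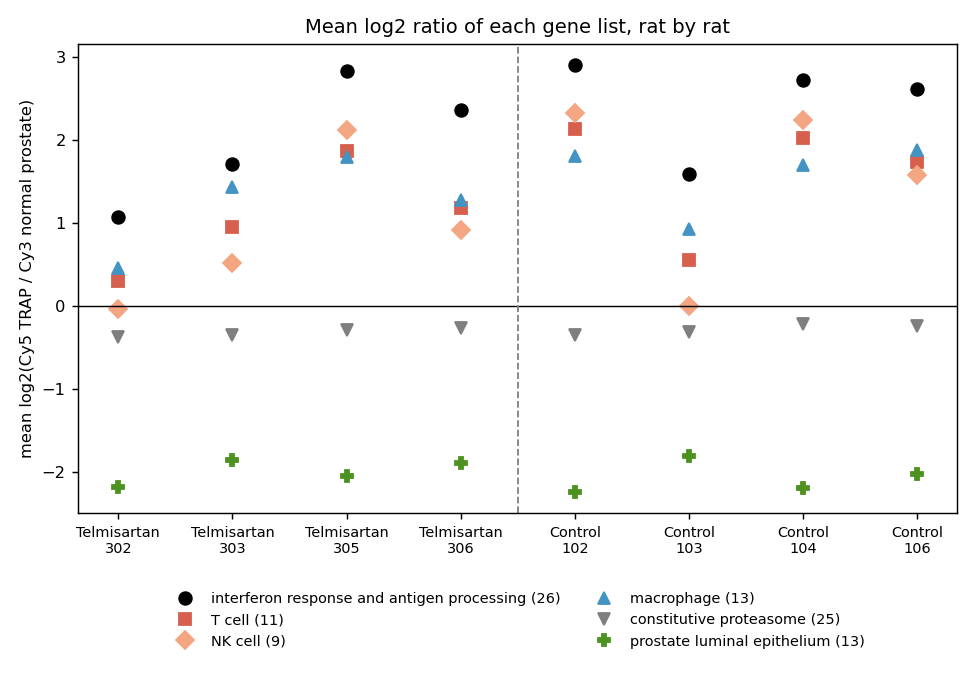
Mean log2 ratio over the reference of 6 gene lists in each rat (number of measured genes in brackets), telmisartan rats left of the dashed line. The interferon, T cell, NK cell and macrophage means are low together in Telmisartan 302 and Control 103, whereas the constitutive proteasome and luminal means stay within narrow ranges.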

How the data were processed

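RNA from the ventral prostates of 8 TRAP rats was hybridised to 2-colour Agilent arrays, 1 array per rat, without a dye swap. Per the file headers, the scanner software, Agilent Feature Extraction 9.1 in the submitters' processing notes, gave uncorrected mean spot intensity and median local background intensity for both dyes. Per the file headers it also gave a log10 ratio of Cy5 over Cy3, background-subtracted and dye-normalized. The log10 values of the deposited series matrix equalled those ratios to rounding, in file order (median 0 on every array) and served as an alternative. The deposited flags of spots above background, saturated or outlying (other columns) were used as filters.

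The intensities were corrected with normexp (offset 50), normalized by loess within arrays and averaged from spots to probes, using limma 3.58.1 in R 4.3.3. A gene was tested by its brightest probe with Cy5 called well above background on 4 or more arrays. The comparison used log2(Cy5/Cy3) in lmFit and eBayes, two-sided, with Benjamini-Hochberg adjustment over 23205 genes and a threshold of 0.05. The 32 genes and all pathway and marker lists were chosen with earlier results of these data known. Named are all measured members, up to 5 genes of smallest unadjusted p in each list, and a fixed set that holds Ifng, Ifnb1, Ifnar1, Ifngr1, Socs1, B2m, Calr, Psmb5, Psmb6, Psmb7, Cd3d, Cd8a, Cd68, Krt18 and Pbsn. Not every gene so named is reported here. The fit was tested on simulated data. Gene names and promoters came from RefSeq tables of GRCr8. Alternatives covered background correction, normalization, the dim probe filter, several probes of a gene, slide, variance model, array weights and each rat left out. A bound over the reference is given for a probe dim in Cy3 and well above background in Cy5 on all arrays of a group. The bound is its mean Cy5 value against the higher of its own Cy3 value and the lowest signal well above background.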

Additional observations from a re-analysis of the deposited data

Results flagged for a closer look

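Control 103 stood apart from the other control rats for 5 of the 26 genes by Dixon's criterion for 4 samples, out of 54 groups examined, of which chance alone flags about 1 in 20. Its log2 ratio was 1.67 for Irf7 (3.25 to 3.45 in the other control rats), 0.57 for Ifi44 (1.70 to 1.83), 2.30 for Psmb9 (3.51 to 3.67), 1.54 for Tap1 (2.06 to 2.10) and 1.02 for Tapbp (1.67 to 1.78). These are values of 1 rat and not independent, since the 26 genes move together.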

How the results depend on the processing

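Over 22 alternatives no measured interferon or antigen processing gene passed the test. No paired analysis was possible because the rat numbers differ between the groups. The count of all genes called ranged between 0 and 1 as each rat was left out, with 1 gene called without Control 102 and 1 without Telmisartan 303. Median centring in place of loess moved the median log2 ratio of the members to 3.31 in telmisartan rats and 3.68 in control rats, and put 23 of 26 above 2-fold in all rats, beside 24.4% of all genes. As each rat was left out that number ranged between 12 and 20, with 20 (4.53% of all genes) without Telmisartan 302, and it was 23 (5.33% of all genes) without Control 103 and Telmisartan 302 together. The direction of single genes turned in several settings. On slide 2 alone Ddx58 stood at 0.26, Eif2ak2 at 0.16, Mx2 at 0.65, Bst2 at 0.27, Ifi44 at 0.0045, Isg15 at 0.18 and Usp18 at 0.23. Usp18 stood at 0.015 with the scanner log ratio, 0.014 with the deposited matrix, 0.060 with median centring and 0.042 with array weights. Isg20 stood at 0.022 with median centring, and Mx2 at 0.00044 with array weights. As each rat was left out, Usp18 ranged between -0.29 and 0.14, Bst2 between -0.54 and 0.12, Mx2 between -0.75 and 0.28, Stat2 between -0.37 and 0.074 and Ifi44 between -0.58 and 0.0051. The cause was not tested. With 1 array per rat and 4 rats a group, the intervals above show which differences could not be resolved.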

Other observations

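Of the 6 listed genes without a probe under their own name or alias, 5 were on the array under other names, a match made after the data were seen. All 5 were lower in telmisartan rats and 0 passed the test (limma). The probes read as Slfn4, Oasl and Ifi27 are named Slfn3, Oasl1 and Ifi27l on the array, so they may stand for related genes. Slfn4, a schlafen gene, had log2 ratios of 0.61, 2.45, 4.21 and 3.59 in Telmisartan 302, 303, 305 and 306, against 4.45, 0.73, 3.52 and 3.69 in Control 102, 103, 104 and 106. The spread within each group was over 3 log2 units, and the difference was -0.38. Oasl, an oligoadenylate synthetase-like gene, averaged 1.74 ± 0.72 in telmisartan rats and 2.20 ± 0.42 in control rats (SD, n = 4 each). Irf9, the DNA-binding subunit of the type I complex, averaged 1.63 ± 0.39 in telmisartan rats and 1.70 ± 0.19 in control rats. Ifi27 averaged 0.41 ± 0.21 in telmisartan rats and 0.65 ± 0.30 in control rats. Ifih1, which encodes the RNA sensor MDA5, stood below normal prostate in all 8 rats, at -1.27 ± 0.36 in telmisartan rats and -1.19 ± 0.12 in control rats, unlike the other 30 measured genes. With these 5 genes added, 31 of 31 were lower and the median difference was -0.32.

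Beyond the members, 272 genes tested had a promoter with the ISRE letters, and 9.93% of them stood above 2-fold in all 8 rats, against 4.87% of 8621 genes without the letters. Their median difference between telmisartan and control rats was -0.05, with 59.6% lower, against -0.0027 and 50.8% without the letters. The 3 lowest rats were Telmisartan 302, Telmisartan 303 and Control 103 for 18.8% of the genes with the letters and 7.01% of those without. None of these genes passed the test (limma). Only the measured members were left out of these sets. The listed genes reached under other names and the further interferon-induced genes described above were not removed. Of the 28 measured further interferon-induced genes, 13 stood above 2-fold in all 8 rats. How far the shares with the letters rest on such known interferon genes was not tested.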
